A study of Mus musculus with 12 samples.

Results

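A set of 10 nuclear genes for subunits of the mitochondrial ATP synthase were followed in single muscle fibers: Atp5a1, Atp5b, Atp5c1, Atp5d, Atp5e, Atp5f1, Atp5h, Atp5o, Atp5g1 and Atp5g2. They were taken by name from the 55367 gene symbols listed, and all 10 were found and passed the filter that left 14426 genes to test. Of these, 9 were listed under these names, and Atp5f1 was listed under its current symbol Atp5pb. The fibers came from the extensor digitorum longus muscle (EDL, a fast hindlimb muscle) of C57BL/6J mice and had been isolated with collagenase. There were 3 groups of 4 samples each: fibers of young mice (3 to 4 months), and Fluo-4 normal and Fluo-4 abnormal fibers of aged mice (26 to 28 months). The labels name no altered gene and no treatment for any group. Fluo-4 is a fluorescent Ca2+ indicator, and abnormal fibers were picked under a fluorescence stereomicroscope for their higher signal. The sources used here do not say how many fibers or mice stand behind a sample, so p-values measure only the spread between these samples.

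The ATP synthase sits in the inner mitochondrial membrane and makes ATP from ADP and phosphate with the energy of protons flowing back into the matrix. Protons turn a ring of c subunits in the membrane, the ring turns a central stalk inside the F1 head, and a peripheral stalk holds the head still while it makes ATP. A few subunits are encoded by mitochondrial DNA and all others by nuclear genes. Skeletal muscle makes the enzyme in large amounts, and most in its oxidative fibers.

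Levels are in TPM, a length-corrected share of all transcripts of a sample, scaled so that the values of a sample sum to 1000000. Read depth is unknown, so no counting interval can be given, and fewer transcripts of a gene cannot be told apart from more transcripts of other genes. All 6 myofiber marker genes were detected, at a summed 97640 to 136600 TPM, and no satellite cell or adipocyte list summed to more than 3.16 TPM in any sample. Markers of other cell types summed to far less than the myofiber markers, with 5 genes to a list. Endothelial markers (all 5 above 0) summed to 17.9 to 34.3 TPM in the young fibers, 38.9 to 118 in the Fluo-4 normal fibers and 9.80 to 70.5 in the Fluo-4 abnormal fibers, and fibroblast markers (all 5 above 0) to 18.9 to 34.8, 24.7 to 80.0 and 13.5 to 62.1 in the same order. Immune markers (3, 4 and 5 above 0) summed to 1.79 to 3.01, 5.57 to 15.2 and 9.27 to 16.1 TPM, and red blood cell markers (all 5 above 0) to 33.1 to 121, 118 to 482 and 44.4 to 236 TPM. Smooth muscle markers (5, 4 and 4 above 0) summed to 4.13 to 66.7, 4.965 to 21.5 and 3.13 to 11.3 TPM. Schwann cell markers (all 5 above 0) summed to 3.56 to 5.52, 3.735 to 15.8 and 6.69 to 13.6 TPM. The part of these cell types in the results was not tested. Mitochondrially-encoded genes took 7.35 to 8.01% of TPM in the young fibers, 8.75 to 10.9% in the Fluo-4 normal fibers and 4.75 to 6.92% in the Fluo-4 abnormal fibers.

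Against Fluo-4 normal fibers, 9 of the 10 genes were lower in the Fluo-4 abnormal fibers, all 5 of F1, all 3 of the peripheral stalk, and Atp5g1 of the c-ring. Atp5g1 fell most, by 39.4% of its mean, and Atp5g2, the other c-ring gene of the set, did not pass the test. The 10 genes together took 1.84% ± 0.05 (SD, n = 4) of TPM in the Fluo-4 normal fibers, 1.35% ± 0.11 in the Fluo-4 abnormal fibers and 1.69% ± 0.11 in the young fibers. The test was limma on log2(TPM + 1) over all 12 samples, with p-values adjusted over the 14426 genes by the Benjamini-Hochberg method and called under 0.05. By that rule 1.99% of all genes were called lower in the Fluo-4 abnormal fibers. For the same 9 members all 4 abnormal samples lay below all 4 normal samples, which held for 2.54% of all genes. The median log2 change over the 10 members was -0.41, against 0.10 over all genes tested. The plot of levels by sample shows all 10 genes.

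**Figure D1:**
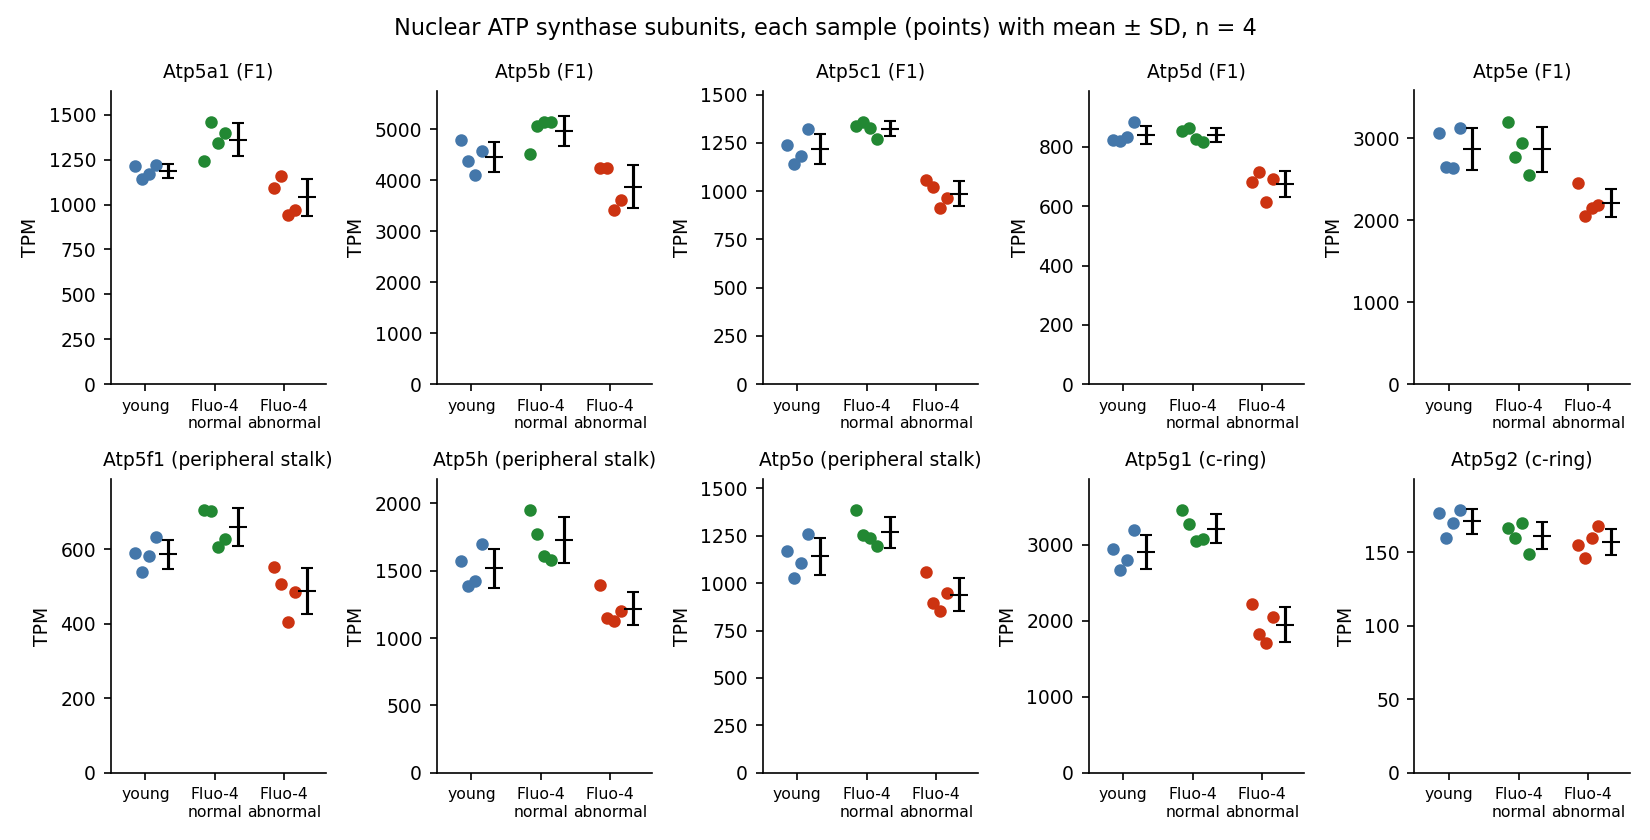
TPM (vertical axis, from 0) of the 10 ATP synthase genes, 1 panel per gene, with each sample as a point by group and the mean ± SD of 4 samples beside it. In every panel but that of Atp5g2 the 4 Fluo-4 abnormal samples sit below the 4 Fluo-4 normal samples.

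Atp5a1 encodes the alpha subunit of the F1 head, which alternates with beta and binds nucleotides without catalysing the reaction (GRCm39, chromosome 18, 77861429 to 77871841, plus strand). Its level was 1244, 1459.5, 1340.2 and 1397 TPM in the Fluo-4 normal fibers, 1090.4, 1161, 940.3 and 970.4 TPM in the Fluo-4 abnormal fibers, and 1214, 1140, 1172 and 1218 TPM in the young fibers. No abnormal sample reached the lowest normal sample, 1 of them lay within the young range, and the normal samples all lay above the young samples. The log2 change between abnormal and normal was -0.39 ± 0.08 (SE; adjusted p = 0.00909, limma).

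Atp5b encodes the catalytic beta subunit and was the highest of the 10 genes in every group (chromosome 10, 127919132 to 127926261, plus strand). It stood at 4522, 5063, 5142 and 5140.3 TPM in the Fluo-4 normal fibers, at 4233, 4230.4, 3422 and 3612 TPM in the Fluo-4 abnormal fibers, and at 4779, 4375, 4099.9 and 4571 TPM in the young fibers. Again the abnormal range ended below the normal range, while 2 abnormal samples lay within the young range. The log2 change was -0.36 ± 0.09 (SE; adjusted p = 0.0263, limma).

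Atp5c1 encodes gamma, the central stalk subunit that turns inside the head (chromosome 2, 10060827 to 10085350, minus strand). Its 4 values were 1339.5, 1358, 1329 and 1270.4 TPM in the Fluo-4 normal fibers, 1056, 1020, 912 and 962 TPM in the Fluo-4 abnormal fibers, and 1240.4, 1143, 1179.5 and 1319.8 TPM in the young fibers. All 4 abnormal samples were below all 8 others. The log2 change against normal was -0.42 ± 0.07 (SE; adjusted p = 0.00294, limma).

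The remaining central stalk genes moved by similar amounts. Atp5d, for the delta subunit at the foot of the stalk, had 817 to 864 TPM in the Fluo-4 normal fibers, 819 to 884 TPM in the young fibers and 614 to 714 TPM in the Fluo-4 abnormal fibers, a log2 change of -0.32 ± 0.06 against normal (SE; adjusted p = 0.00749, limma). Atp5e, for the small epsilon subunit beside it, had 2555 to 3198 TPM in the Fluo-4 normal fibers, 2642 to 3121 TPM in the young fibers and 2056 to 2451 TPM in the Fluo-4 abnormal fibers, a log2 change of -0.37 ± 0.09 (SE; adjusted p = 0.0236, limma). For both genes the abnormal samples lay below all 8 others, and the normal and young means were nearly equal, 840 and 841 TPM for Atp5d and 2866 and 2869 TPM for Atp5e. Atp5d lies on chromosome 10 (79974466 to 79981652, plus strand) and Atp5e on chromosome 2 (174302861 to 174305906, minus strand).

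Atp5h encodes subunit d of the peripheral stalk (chromosome 11, 115305263 to 115311342, minus strand). It stood at 1948, 1775, 1609 and 1581 TPM in the Fluo-4 normal fibers, 1394, 1148.5, 1127 and 1203 TPM in the Fluo-4 abnormal fibers, and 1571, 1386, 1424 and 1702 TPM in the young fibers. The highest abnormal sample lay just above the lowest young sample, and none reached the normal range. The log2 change was -0.50 ± 0.10 (SE; adjusted p = 0.00662, limma), next in size to that of Atp5g1 among the 10 members.

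Atp5f1, for the long membrane-anchored subunit b of this stalk (chromosome 3, 105849374 to 105867415, minus strand), fell from 660 ± 50.7 TPM in the Fluo-4 normal fibers to 487 ± 61.5 TPM in the Fluo-4 abnormal fibers (SD, n = 4). Its log2 change was -0.44 ± 0.09 (SE; adjusted p = 0.0113, limma). Atp5o encodes OSCP, the cap that joins the stalk to the top of the F1 head (chromosome 16, 91720317 to 91728575, minus strand), and fell from 1268 ± 80.7 TPM to 938 ± 87.6 TPM, a log2 change of -0.44 ± 0.08 (SE; adjusted p = 0.00739, limma). Young fibers stood between, at 586 ± 39.0 TPM for Atp5f1 and 1142 ± 98.6 TPM for Atp5o, and for both genes the abnormal range overlapped the young range and not the normal range.

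The libraries do not mark strand, and exons of all members but Atp5e overlap exons of a gene on the other strand by 126 to 1067 bases, so reads there cannot be assigned by strand. Atp5o also shares 243 exon bases on its own strand with a shorter gene of the same symbol, which was listed at 0 in every sample. A stretch of 595 bases that matches Atp5h at 98.7% belongs to Rpl37, a ribosomal protein gene at 99.4 to 143 TPM.

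The c-ring is where the set split. Atp5g1 and Atp5g2, with Atp5g3 outside the set, are separate genes for the same c subunit, the proton-carrying ring protein, and they differ in the targeting peptide that is cut off in the mitochondrion. The first 90 of the 225 bases that encode the mature protein are shown because the TPM of each gene rests on reads that tell these copies apart. All 3 encode the same 75 residues, and capitals mark bases that differ from Atp5g1 (read 5′ to 3′ from GENCODE transcripts, GRCm39, coding strand).
Atp5g1: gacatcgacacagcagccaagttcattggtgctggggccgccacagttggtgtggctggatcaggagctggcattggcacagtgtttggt
Atp5g2: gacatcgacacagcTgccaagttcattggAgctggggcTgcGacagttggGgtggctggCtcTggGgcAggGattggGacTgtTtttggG
Atp5g3: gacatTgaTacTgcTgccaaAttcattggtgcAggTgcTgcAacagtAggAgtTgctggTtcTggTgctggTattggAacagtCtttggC
Over the 225 bases, Atp5g2 differed from Atp5g1 at 34 (84.9% identity), Atp5g3 from Atp5g1 at 45 (80.0%), and Atp5g2 from Atp5g3 at 48. The genes lie on chromosome 11 (Atp5g1, 95959678 to 95966757), chromosome 15 (Atp5g2, 102571295 to 102580787) and chromosome 2 (Atp5g3, 73738779 to 73741933), all on the minus strand.

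Atp5g1 stood at 3448, 3275, 3046 and 3074 TPM in the Fluo-4 normal fibers and at 2219.7, 1823, 1699.6 and 2046 TPM in the Fluo-4 abnormal fibers. The young fibers had 2946, 2672, 2791 and 3186 TPM. All 4 abnormal samples lay below all 8 others, by a wide gap. The log2 change against the Fluo-4 normal fibers was -0.73 ± 0.09 (SE; adjusted p = 0.000762, limma).

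As listed, Atp5g2 was the lowest of the 10 genes in every group. It had 166.7, 159.6, 170.2 and 149 TPM in the Fluo-4 normal fibers, 154.8, 146, 159.8 and 167.9 TPM in the Fluo-4 abnormal fibers, and 176.9, 159.8, 170 and 178.6 TPM in the young fibers. The abnormal and normal samples overlapped over most of their range, and the log2 change was -0.04 (95% interval -0.18 to 0.10; adjusted p = 0.752, limma). The lower end of that interval is a smaller change than that of any of the other 9 members. The interval holds for TPM as listed. With scaling factors of the trimmed mean of M-values (TMM) type, the Atp5g2 change was -0.26 (adjusted p = 0.192, limma), outside that interval. The other 9 members then ran from -0.95 for Atp5g1 to -0.54 for Atp5d. Atp5g3 fell from 1712 to 1192 TPM on average, a log2 change of -0.52 ± 0.09 (SE; adjusted p = 0.00530, limma).

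Both c-ring genes of the set have near-identical processed copies elsewhere, which bears on how reads were assigned. The copy of Atp5g1, Gm10039 (chromosome 11, 100252542 to 100252952, minus strand), matched it over 411 bases with the single difference G472A, counted from the 5′ end of the Atp5g1 transcript. The bases around it are shown with the differing base in capitals.
Atp5g1: tctgtttgatggtcGccttcctcatcctc
Gm10039: tctgtttgatggtcAccttcctcatcctc
Gm10039 was listed at 367 to 528 TPM in the Fluo-4 normal fibers, 193 to 386 in the Fluo-4 abnormal fibers and 295 to 408 in the young fibers. Atp5g2 matched Gm10175 (chromosome 7, 23646217 to 23646657, minus strand) at every one of 441 bases, and this copy was listed higher than Atp5g2 itself, at 449 to 511, 418 to 452 and 477 to 537 TPM in the same order of groups. The Atp5g2 level is therefore uncertain. With its copies added it stood at 676 TPM in the young, 649.6 in the Fluo-4 normal and 599 in the Fluo-4 abnormal fibers on average, against 171, 161 and 157 TPM as listed, and it was then above Atp5f1 in the young and the abnormal fibers. With the copies added to each gene, the log2 change between abnormal and normal was -0.72 for Atp5g1 (adjusted p = 0.00143, limma) and -0.12 ± 0.06 for Atp5g2 (SE; adjusted p = 0.268, limma).

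Atp5g1 supplied a smaller share of c-subunit transcripts in abnormal fibers than in the other groups. Of the summed TPM of Atp5g1, Atp5g2 and Atp5g3, it made up 60.6, 57.5, 59.3 and 58.7% in the Fluo-4 abnormal fibers, 63.7, 62.5, 64.7 and 61.8% in the Fluo-4 normal fibers, and 62.5, 61.65, 61.3 and 61.9% in the young fibers. The abnormal samples lay below all others, and the normal and young samples overlapped. The difference of means was -4.14 percentage points against normal and -2.81 against young, each with p = 0.0286 in a two-sided exact permutation test, the smallest p that 4 against 4 samples allow (adjusted p = 0.0429 over 3 comparisons). That test does not use the replicate numbers. Taken as 4 same-numbered pairs, the share was lower in the abnormal sample of all 4 pairs (exact permutation p = 0.125, the smallest p that 4 pairs allow), so a paired test cannot reach the threshold. The normal fibers exceeded the young fibers by 1.33 points (exact permutation p = 0.143, adjusted p = 0.143). With the copies added, the difference against young was -3.54 points and missed the threshold (exact permutation p = 0.0571, adjusted p = 0.0571), and that of normal against young was 1.92 points and passed it (adjusted p = 0.0429). Within Atp5g1 and Atp5g2 alone, normal against young also passed (0.796 points, adjusted p = 0.0286).

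**Figure D2:**
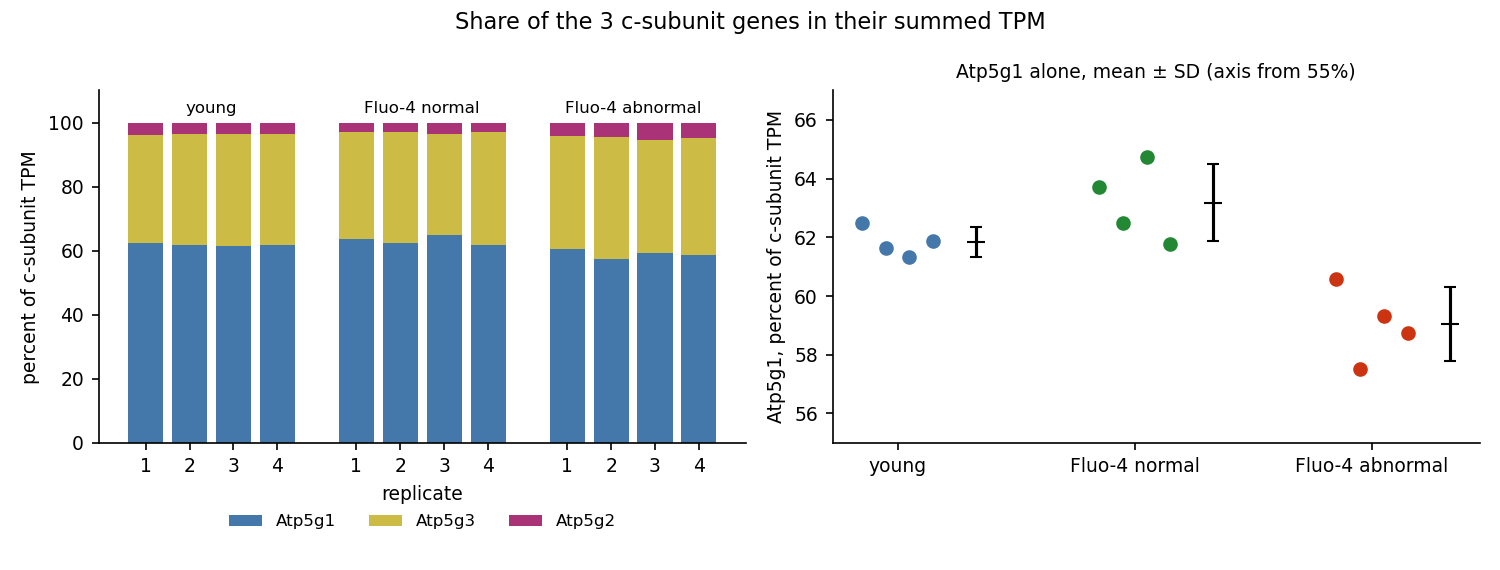
Left, stacked bars of the percent of summed c-subunit TPM that Atp5g1, Atp5g3 and Atp5g2 took in each of the 12 samples, and right, the Atp5g1 percent alone on an axis from 55% as points with the mean ± SD of 4 samples. The 4 Fluo-4 abnormal samples, at 57.5 to 60.6%, lie below all other samples.

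The set was also read by module, as the mean log2(TPM + 1) of its genes. F1 stood at 10.76 ± 0.07 in the young fibers, 10.85 ± 0.03 in the Fluo-4 normal fibers and 10.48 ± 0.10 in the Fluo-4 abnormal fibers (SD, n = 4). The peripheral stalk stood at 9.97 ± 0.12, 10.14 ± 0.11 and 9.68 ± 0.15 in the same order, and the c-ring pair at 9.46 ± 0.09, 9.49 ± 0.07 and 9.11 ± 0.10. All 3 modules were lowest in the abnormal fibers.

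Set against F1 within each sample, the mean of the 3 stalk genes and the log-scale mean of the c-ring pair kept nearly the same distance in all groups. The c-ring mean counts Atp5g1 and Atp5g2 equally and leaves out Atp5g3, so it does not stand for all c-subunit transcripts. The stalk mean leaves out Atp5j, a stalk subunit outside the set that is read below. The stalk lay below F1 by a log2 difference of -0.78 ± 0.06 in the young fibers, -0.71 ± 0.11 in the Fluo-4 normal fibers and -0.80 ± 0.08 in the Fluo-4 abnormal fibers (SD, n = 4). The c-ring pair lay at -1.29 ± 0.03, -1.36 ± 0.06 and -1.37 ± 0.12. Between groups these distances differed by 0.09 or less on the log2 scale, about the spread between replicates, and they are given as a description without a test. Against the normal fibers the 3 stalk genes had log2 changes of -0.50 to -0.44, and the 5 F1 genes -0.42 to -0.32.

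The c-ring mean hid opposite distances of its 2 genes. Atp5g1 lay above F1 by 0.74 ± 0.05 in the young fibers, 0.80 ± 0.08 in the Fluo-4 normal fibers and 0.44 ± 0.13 in the Fluo-4 abnormal fibers, and the abnormal range of 0.29 to 0.56 was below the normal range of 0.71 to 0.91. Atp5g2 lay at -3.33 ± 0.04, -3.51 ± 0.07 and -3.17 ± 0.16 relative to F1, so that in abnormal fibers it was nearer to F1 than in normal fibers.

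**Figure D3:**
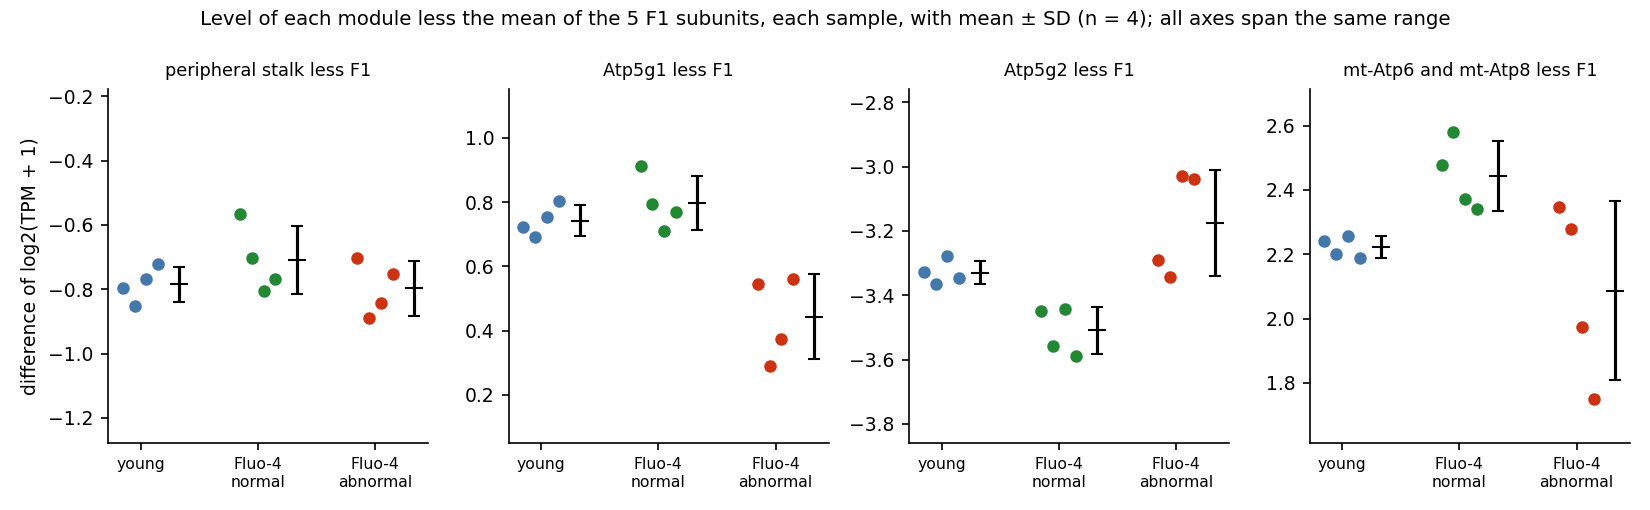
Difference of log2(TPM + 1) from the mean of the 5 F1 genes, for the peripheral stalk, Atp5g1, Atp5g2, and the mitochondrially-encoded pair mt-Atp6 and mt-Atp8, with each sample as a point by group and the mean ± SD of 4 samples. The stalk overlaps between all groups, Atp5g1 is lower in the abnormal samples (0.29 to 0.56) and Atp5g2 is higher there than in the normal samples.

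Ordered by mean TPM as listed, Atp5b was at the top in each group and Atp5d, Atp5f1 and Atp5g2 were the last 3, where the bottom place of Atp5g2 holds only without its copies. Atp5g1 was above Atp5e in 3 of 4 young samples, in 4 of 4 Fluo-4 normal samples and in 0 of 4 Fluo-4 abnormal samples, although the ranges of this pair of neighbours overlapped within each group. Atp5a1, Atp5c1 and Atp5o were neighbours with overlapping ranges in each group, joined by Atp5h in the abnormal fibers. Within the abnormal group, replicate 1 was highest for 7 of the 10 genes and replicate 3 was lowest for 8, so the genes moved together among replicates as well.

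Aged Fluo-4 abnormal fibers were next compared with young fibers, and 4 of the 10 genes were lower: Atp5c1, Atp5d, Atp5e and Atp5g1. By the same rule 2.41% of all genes were called lower. The abnormal samples lay below all young samples for these 4 genes, which held for 3.95% of all genes. The log2 changes were -0.58 ± 0.09 for Atp5g1 (SE; adjusted p = 0.00240), -0.38 ± 0.09 for Atp5e (adjusted p = 0.0243), -0.32 ± 0.06 for Atp5d (adjusted p = 0.00701) and -0.31 ± 0.07 for Atp5c1 (adjusted p = 0.0146), all by limma. The 3 peripheral stalk genes missed the threshold, with log2 changes of -0.32 for Atp5h (adjusted p = 0.0545), -0.28 for Atp5o (adjusted p = 0.0542) and -0.27 for Atp5f1 (adjusted p = 0.0877). Atp5a1 and Atp5b were at -0.19 and -0.21 (adjusted p = 0.151 and 0.200), and Atp5g2 was at -0.12 (95% interval -0.27 to 0.02; adjusted p = 0.284).

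The median log2 change of the 10 genes against young was -0.29, against 0.07 over all genes tested. An unadjusted p under 0.05 held for 9 of the 10, and for 3323 of 14426 genes tested. The count of 4 depended on the samples and the filter: it was 2 without young replicate 4 (Atp5d and Atp5g1), 7 without Fluo-4 abnormal replicate 1, and 7 where only genes of at least 5 TPM were tested. Over all genes, 347 of 14426 were called lower in the reported fit and 379 of 6348 with that filter. Without young replicate 4 it was 210 of 14457, and without Fluo-4 abnormal replicate 1 it was 331 of 14401. Both comparisons of the abnormal fibers share those 4 samples.

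Between Fluo-4 normal fibers of aged mice and young fibers, none of the 10 genes was called, against 1.15% of all genes called in either direction. One of the 10, Atp5a1, had an unadjusted p under 0.05 (0.0258, limma), as did 1865 of 14426 genes. Its log2 difference was 0.20 ± 0.08 (SE; adjusted p = 0.293, limma). Its 4 normal samples lay above all 4 young samples, as 3.03% of all genes did. The other log2 differences ran from -0.09 for Atp5g2 to 0.18 for Atp5h, with a median over the 10 of 0.15 against -0.02 over all genes tested. The intervals do not exclude a modest rise: that of Atp5g1 ran from -0.05 to 0.35.

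Myosin heavy chains differed with the Fluo-4 abnormal group. Myh4, the chain of the fastest, least oxidative fibers, was higher in the abnormal than in the normal fibers (log2 change 0.66, adjusted p = 0.0198, limma), a call made under 17 of 23 alternatives and lost with scaling factors of the trimmed mean of M-values (TMM) type (0.44, adjusted p = 0.181). Myh1, the chain of the next fastest fibers, stood at 46.2 to 541.5 TPM in the normal, 44.3 to 147 TPM in the abnormal and 147 to 262 TPM in the young fibers. For Myh1 the abnormal fibers differed from the normal fibers by a log2 change of -1.81 (adjusted p = 0.0870 by limma, and 0.0431 with the replicate number as a block). Myh1 passed the threshold under 3 of 23 alternatives, among them leaving out Fluo-4 normal replicate 1. At 46.2 TPM that sample had the lowest Myh1 of the normal samples. Myh4 made up 98.9 to 99.7% of the summed TPM of 4 myosin heavy chain genes there, against 93.7 to 99.2% in the normal and 96.9 to 98.55% in the young fibers. Fluo-4 normal replicate 1, at 99.2%, lay inside the abnormal range, and it exceeded all 4 abnormal samples for 9 of the 10 ATP synthase genes. This is 1 sample only. Myh4 differed by less from young fibers (log2 change 0.42, adjusted p = 0.127). With the Myh4 share as a covariate all 10 changes stayed negative with a median of -0.38, and 3 genes were called: Atp5c1, Atp5h and Atp5g1. Over all genes, 108 of 14426 were then called lower. A further fit added the replicate number as a block and used the abnormal and normal samples only. In it none of the 10 was called (7 at an unadjusted p under 0.05), and the smallest adjusted p was 0.0698 for Atp5g1 (limma). Over all genes, 30 of 14128 were called higher and 3 lower, and 2653 had an unadjusted p under 0.05. The same block fit without the Myh4 share called 9 of the 10. With the share the fit has few samples for its terms, and what each contributed to the loss of calls was not tested. The part of fiber type in the 9 calls was not otherwise tested.

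**Figure D4:**
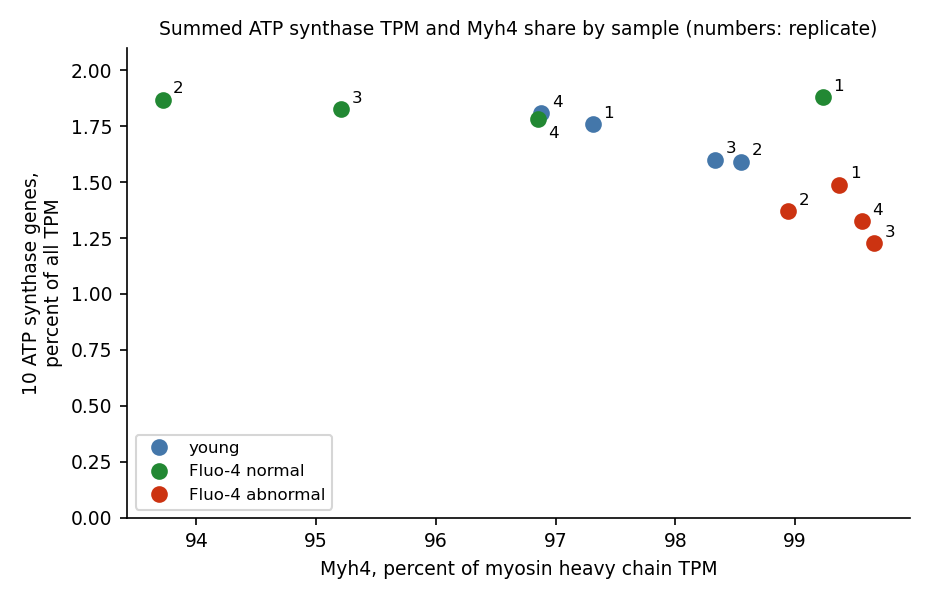
Percent of all TPM taken by the 10 ATP synthase genes (vertical axis, from 0) against the percent of myosin heavy chain TPM taken by Myh4, with each of the 12 samples as a point by group, numbered by replicate. The 4 Fluo-4 abnormal samples have Myh4 shares of 98.9 to 99.7% and the lowest ATP synthase shares. Of the single samples, Fluo-4 normal replicate 1 has a Myh4 share of 99.2%, inside the range of the abnormal fibers, and the highest ATP synthase share, 1.88%.

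The rest of the enzyme moved with the set. All 7 other nuclear subunit genes tested were lower in abnormal than in normal fibers, with log2 changes of -0.52 for Atp5g3, -0.59 for Atp5j (coupling factor 6 of the peripheral stalk), -0.46 for Atp5j2, -0.44 for Atp5k, -0.42 for Atp5l, -0.48 for Atp5md and -0.57 for Atp5mpl, and adjusted p between 0.00530 and 0.0281 (limma). Their median was -0.48, and 1.99% of all genes were called lower by the same rule. With the Myh4 share as a covariate 4 of the 7 were called, against 108 of 14426 genes called lower. Against the young fibers Atp5g3 (-0.44, adjusted p = 0.0118) and Atp5mpl (-0.47, adjusted p = 0.0144) were called and the other 5 were not. All 17 nuclear subunit genes together took 2.98% of TPM in the Fluo-4 normal, 2.16% in the Fluo-4 abnormal and 2.72% in the young fibers.

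The mitochondrially-encoded subunits fell too. mt-Atp6, the subunit a that forms the proton channel next to the c-ring, stood at 10649, 12435, 10584 and 9354 TPM in the Fluo-4 normal fibers, 7808, 7309, 5586 and 5115 TPM in the Fluo-4 abnormal fibers, and 8140 to 8757 TPM in the young fibers. The 3 groups did not overlap, with normal highest and abnormal lowest. The log2 change between abnormal and normal was -0.75 ± 0.13 for mt-Atp6 (SE; adjusted p = 0.00530, limma) and -0.71 ± 0.17 for mt-Atp8, a small subunit beside it (SE; adjusted p = 0.0187, limma), and with the Myh4 share as a covariate both missed the threshold, with an unadjusted p under 0.05. Against young, neither was called (-0.42, adjusted p = 0.0722, and -0.41, adjusted p = 0.154). Relative to F1 the pair lay at 2.22 ± 0.03 in the young, 2.44 ± 0.11 in the Fluo-4 normal and 2.09 ± 0.28 in the Fluo-4 abnormal fibers (log2 difference, SD, n = 4). Abnormal replicates 1 and 2 stood near 2.3 and replicates 3 and 4 at 1.97 and 1.75, so the abnormal samples spread more in this distance than in that of any nuclear module.

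**Figure D5:**
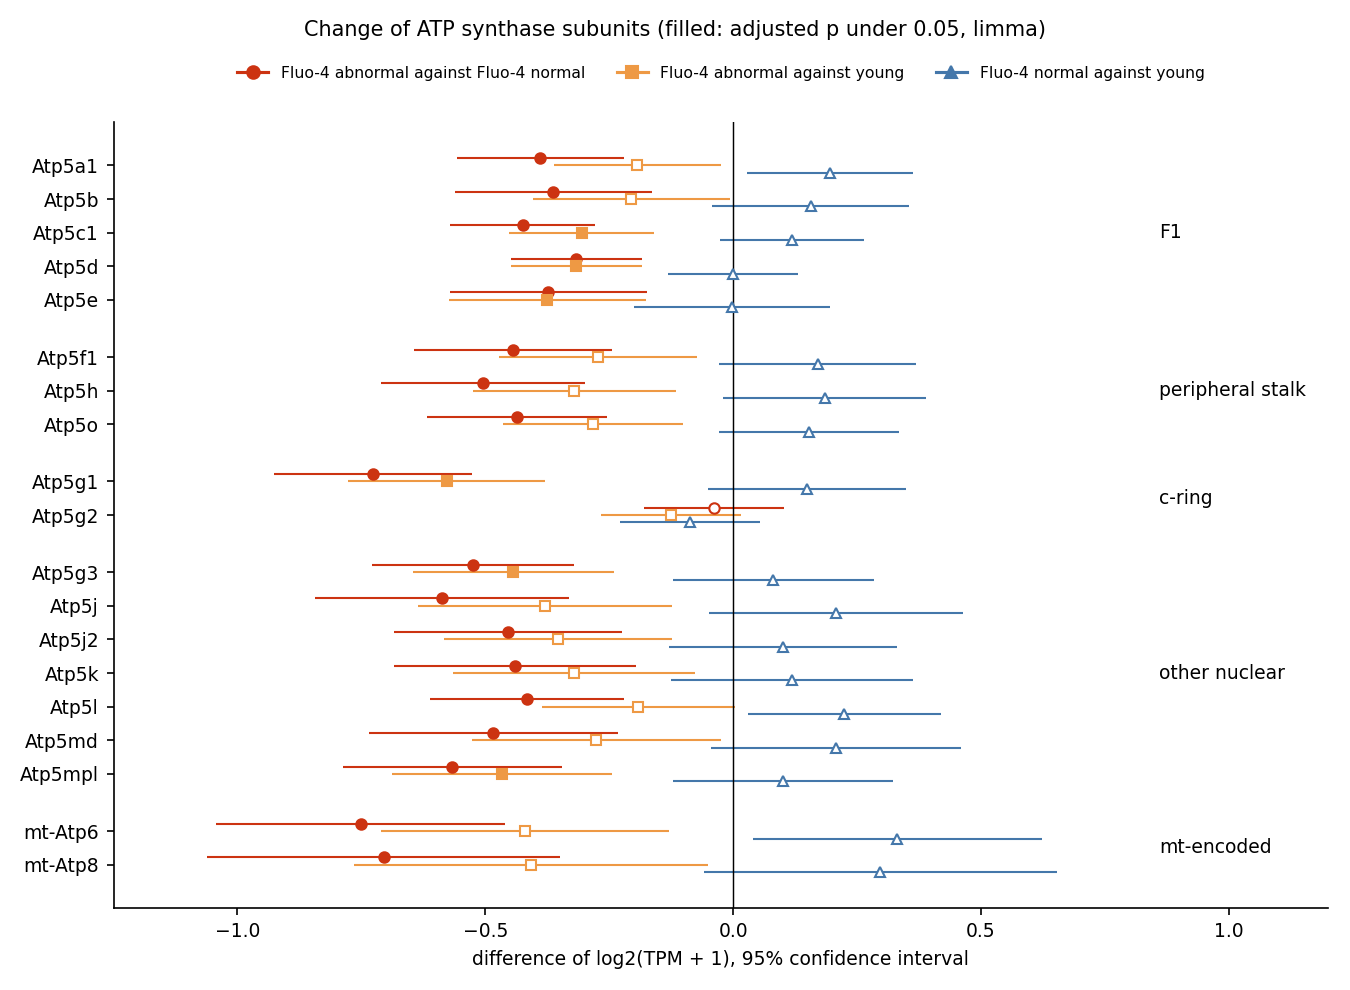
Difference of log2(TPM + 1) with its 95% interval for each ATP synthase subunit gene in the 3 comparisons, by module, with filled symbols where the adjusted p was under 0.05 (limma). Against the Fluo-4 normal fibers every interval but that of Atp5g2 lies below 0, with Atp5g1 at -0.73 and mt-Atp6 at -0.75 farthest.

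Of the genes that restrain, assemble or modify the enzyme, none of 8 was called between abnormal and normal fibers. Over all genes 1.99% were called lower and 7.36% higher. Among the 8, 2 had an unadjusted p under 0.05, against 3693 of 14426 genes. Of them 3 were higher and 5 lower, against 69.6% and 29.4% of all genes tested, and the median log2 change was -0.11. Atpif1, the inhibitor that blocks ATP hydrolysis by F1, had 129 ± 14.9 TPM in the normal and 119 ± 25.2 TPM in the abnormal fibers, against 95.4 ± 5.28 TPM in the young fibers (SD, n = 4). Its log2 difference was -0.13 between abnormal and normal (adjusted p = 0.552) and 0.43 between normal and young (adjusted p = 0.133). The assembly factor Atpaf1, which binds beta before it joins the head, was at -0.41 (adjusted p = 0.0794). It passed the threshold under 4 of 23 alternatives, among them the replicate number as a block (adjusted p = 0.0332) and TMM-type factors (-0.63, adjusted p = 0.0137). Tmem70, which acts in assembly of the c-ring, was at -0.15 (adjusted p = 0.294). Atpsckmt went the other way and had the largest rise of the 8 (log2 change 0.46, adjusted p = 0.116, limma). It had 6.83 to 9.14 TPM in the abnormal, 3.53 to 6.63 TPM in the normal and 7.00 to 10.2 TPM in the young fibers. All 4 abnormal samples lay above all 4 normal samples, which held for 1653 of 14426 genes. Against young fibers 1 of the 8 was called lower, against 2.41% of all genes. It was the assembly gene Tmem242 (-0.35, adjusted p = 0.0194, limma), named after its values were seen.

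Genes that bring ADP and phosphate in and pass ATP on were listed together with Ppif, a gene of the permeability transition pore. All had lower values, 8 of 8 against 29.4% of all genes tested. Of the 8, 4 were called, against 1.99% of all genes, with a median of -0.29. With the Myh4 share as a covariate 1 of the 8 was higher and 3 were called lower, against 108 of 14426 genes. Ckmt2, the mitochondrial creatine kinase that hands the phosphate of new ATP to creatine, stood at 1074, 1421, 1077 and 1082 TPM in the Fluo-4 normal fibers and at 496, 315, 183 and 283 TPM in the Fluo-4 abnormal fibers, and at 1039.6 to 1142 TPM in the young fibers. The abnormal samples were far below all others, and the log2 change against normal was -1.94 ± 0.21 (SE; adjusted p = 0.000494, limma). Slc25a4, the muscle ADP/ATP carrier, fell from 3416 to 2372 TPM (log2 change -0.53, adjusted p = 0.000730), and Ppif, the matrix cyclophilin of the permeability transition pore, from 30.9 to 16.5 TPM (-0.87, adjusted p = 0.000713). The fourth was the phosphate carrier Slc25a3 (-0.41, adjusted p = 0.00909), also named after its values were seen. Against young fibers 5 of the 8 were called lower, against 2.41% of all genes.

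Nuclear genes of respiratory complexes I to IV, the chain behind the proton gradient that the ATP synthase uses, were read next. All 61 had lower values in abnormal than in normal fibers and 45 were called, with a median log2 change of -0.39. Of all genes tested, 29.4% had lower values and 1.99% were called lower. These were 23 of 36 for complex I (median -0.35), 3 of 4 for complex II (-0.45), 9 of 10 for complex III with cytochrome c (-0.43) and 10 of 11 for complex IV (-0.45). The leading genes were Ndufa8 (-0.60), Ndufs8 (-0.49) and Ndufa9 (-0.38) of complex I and Sdhb (-0.64), Sdhd (-0.52) and Sdhc (-0.38) of complex II. In complex III they were Uqcrfs1 (-0.54), Uqcrq (-0.59) and Uqcrc2 (-0.47), and in complex IV Cox6c (-0.66), Cox4i1 (-0.45) and Cox7a1, the muscle form of its subunit (-0.78). With the Myh4 share as a covariate 18 of the 61 were called, against 108 of 14426 genes called lower. Against young fibers 31 of the 61 were called lower, against 2.41% of all genes, with a median of -0.31. Between normal and young fibers none was called (3 at an unadjusted p under 0.05, against 1865 of 14426 genes).

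The vacuolar ATPase, a proton pump of lysosomes built on a similar rotary plan that spends ATP, was read as a contrast. Of its 16 genes, 15 had higher and 1 lower values in abnormal than in normal fibers and 5 were called higher, with a median log2 change of 0.21, but with TMM-type factors 7 were higher and 9 lower, the median was -0.02 and only Atp6v0a1 was called. Of all genes tested, 69.6% had higher values in the abnormal fibers and 7.36% were called higher before that scaling. Before it the other 4 called genes were Atp6v0c (0.33), Atp6ap1 (0.37), Atp6v0a2 (0.51) and Atp6v1a (0.68), the last 2 named after their values were seen. The TMM-type factors moved the median of all genes from 0.10 to 0.00. Atp6v0a1, for a membrane subunit of the pump, had 47.8, 67.3, 59.1 and 61.7 TPM in the abnormal fibers, 20.4, 23.1, 29.3 and 31.7 TPM in the normal fibers and 26.5 to 31.3 TPM in the young fibers, with no overlap of abnormal and other samples (log2 change 1.16, adjusted p = 0.000682 by limma). Under TMM-type factors its log2 change was 0.93 (adjusted p = 0.00038). Under the same factors the median of the 10 ATP synthase genes was -0.63 and the same 9 were called lower.

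Over the 12 samples, 9 of the 10 genes tracked each other closely. Pearson's r of a gene to the mean log2(TPM + 1) of the other 9 was 0.991 for Atp5c1, 0.980 for Atp5g1, 0.827 to 0.971 for the next 7, and 0.358 for Atp5g2. Among 5975 other genes of at least 5 TPM, the 5 with the highest r to the mean of the 10 were Cox4i1 (0.9905), Sdhd (0.984), Uqcrq (0.978), Cox7c (0.978) and Ndufa9 (0.976), all of complexes I to IV. These correlations are a description: the points are the same 3 groups of samples, and TPM values within a sample share 1 total.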

How the data were processed

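RNA of isolated fibers (10 ng) was amplified with SMART-Seq v4, which keeps no strand, and the authors aligned the reads to GRCm39 and quantified genes in TPM with DRAGEN 4.3. The annotation release is not given in the sources used here. The deposited TPM values sum to 1000000 per sample and hold no counts, so depth is unknown.

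The 12 samples were grouped by their labels. Rows of 1 symbol were summed. Genes under 0.02 TPM in all groups were dropped, as were genes neither protein coding nor mitochondrially-encoded, which left 14426 genes. Log2(TPM + 1) was tested with limma 3.58.1 (R 4.3.3, trend) with 1 term per group. The added 1 makes log2 changes of low genes too small. Shares were compared with exact permutation tests (scipy 1.17.1). Positions and sequences came from GENCODE on GRCm39, and copies from BLAST 2.17.0.

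Labels give all groups replicate numbers 1 to 4 and do not say what a shared number stands for. Same-numbered abnormal and normal samples deviated together from their group means (r = 0.44, 0.37, 0.43 and 0.30 over 5994 genes), so a fit with the number as a block was run beside the reported fit, which has none. The block fit, on the abnormal and normal samples only, called the same 9 members.

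Named genes were the members, all other subunits, and in other lists the 3 genes with the smallest limma p between abnormal and normal. Atpif1 was named outside that rule, as were the genes marked as named after their values were seen. Members and lists were chosen with earlier results of these data known. Alternatives were TMM-type factors, scaling without mitochondrially-encoded genes, a pseudocount of 0.1, filters of 5 TPM or none, the block, the Myh4 share, the 2 groups alone, copies added and a paired exact test of the share (both chosen after seeing the data), and leaving out each replicate.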

Additional observations from a re-analysis of the deposited data

Results flagged for a closer look

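Of 63 groups of 4 values tested, 2 held a sample whose gap to the nearest other sample was above Dixon's 95% critical value as a share of the group's range, a rate below the about 1 in 20 that chance gives. Atp5b in Fluo-4 normal replicate 1 stood at 4522 TPM against 5063, 5140.3 and 5142 TPM in the others, a gap of 0.873 of the range. Atp5g3 in Fluo-4 normal replicate 3 stood at 1489 TPM against 1753, 1798 and 1808 TPM in the others, a gap of 0.8294. Both low samples were still above all 4 Fluo-4 abnormal samples of the same gene.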

How the results depend on the processing

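Between abnormal and normal fibers, 9 members were called under most alternatives, the block by replicate number included (9). The count was 7 with the 2 groups alone, 3 with the Myh4 share as a covariate, 0 with the block and that share, and 7 to 9 without single replicates. Of 230 alternative values of the 10 genes, 204 kept direction and side of the threshold and 26 kept direction but missed it, among them Atp5b under 8 and Atp5e under 7 of 23 alternatives. Against young fibers the count of 4 became 5 with a pseudocount of 0.1, 6 with TMM-type factors or without mitochondrially-encoded genes, 7 with the filter of 5 TPM, and 2 to 7 without single replicates. The genes called lower against young rose too, from 347 of 14426 to 693 of 14426 with TMM-type factors. With the filter of 5 TPM they were 379 of 6348. No member was called between normal and young fibers under any alternative. The difference in Atp5g1 share was -3.54 points against young with copies added. Normal against young gave 1.92 with copies added and 0.796 within Atp5g1 and Atp5g2. The paired exact test left the share difference of abnormal against normal at -4.14 points, with p = 0.125. No called member or share changed direction, while 12 of 210 uncalled member values of normal against young changed sign. TMM-type factors turned the balance of the vacuolar ATPase from 15 higher and 1 lower to 7 and 9, and changed the calls over all genes from 1062 higher and 287 lower to 308 higher and 544 lower. Unknown depth limits the low genes most, and 3 samples against 4 cannot reach p under 0.05 in the exact test, so shares without single replicates are values only (-4.65 to -3.62 for abnormal against normal, -3.32 to -2.31 against young).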
